A study of Mus musculus with 564 samples.

Results

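Lysosome and autophagy genes were followed through their cis-regulatory elements (CREs), the regions over which the deposited table gives ChIP-seq reads for the active chromatin mark H3K27ac (histone H3 with an acetyl group on lysine 27). The set held 36 genes, and a CRE was taken as a member where its centre lay within 10 kb of a curated RefSeq transcription start of 1 of them. This gave 99 of the 59190 CREs, at least 1 for each of the 36 genes. A promoter CRE, the one nearest to the start and within 1 kb of it, was found for 32 genes. The other 67 CREs were called distal, and Atp6v0d2, Atp6v1b2, Ctsk and Gusb had CREs called distal alone. Distance was taken from the centre of a CRE, so some wide CREs called distal cover a start. Those of Atp6v1b2 (chr8:69087799-69092063), Gusb (chr5:129998569-130003932) and Psap (chr10:60276781-60280831) do, and the promoter counts leave them out. The nearest coding start belonged to a member gene for 89 of the 99 CREs and to another gene for 10. H3K27ac near a gene is not its mRNA level, and no RNA was analysed here.

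The cells were mouse bone marrow-derived macrophages (BMDMs), primary cells grown from the marrow of wild type animals. They received the vehicle DMSO or 1 of 58 clinical kinase inhibitors (CKIs) for 1 h before stimulation. One group stayed without stimulus (UT). The others received lipopolysaccharide (LPS), which bacteria shed and TLR4 senses, or interleukin 4 (IL-4), a cytokine of allergic and anti-helminth responses. Both were given at 10 ng/mL, and cells were taken at 30 min, 1 h, 2 h and 4 h. The UT cells had the pretreatment alone, so exposure to a CKI was shortest in UT and longest at 4 h. Of 564 ChIP-seq libraries, 18 came from DMSO cells, as 9 groups of 2, and the rest from CKI cells, of which 73 were UT, 241 LPS and 232 IL-4. Both DMSO time courses start from the same 2 UT libraries, so their differences share that reference and were not correlated with each other. Nothing in the labels says that replicates came from separate animals or cultures, so the p-values measure the spread between these libraries, which may be technical. In bulk chromatin, fewer cells carrying the mark and less mark per cell cannot be told apart.

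Lysosomes are acidic organelles in which hydrolases break down material taken up by endocytosis and phagocytosis or delivered by autophagy, and macrophages are rich in them. The vacuolar ATPase (V-ATPase) pumps protons into the lumen, membrane proteins such as Lamp1 coat the inner face, and soluble enzymes such as the cathepsins, glycosidases and lipases act inside. TFEB, a transcription factor of the MiT/TFE family, drives many of these genes through an E-box-containing element known as the CLEAR motif. The kinase complex mTORC1, which lies downstream of PI3K and AKT and is held at the lysosome, keeps TFEB phosphorylated in the cytoplasm, and folliculin (Flcn) takes part in that control.

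RefSeq promoter windows (GRCm38.p6, from 250 bases before to 50 bases after a start) were matched by symbol for 31 of the 36 genes. Atp6v0d2, Atp6v1b2, Atp6v1h, Ctsb and Npc1 had no entry. The E-box core CACGTG, read on both strands, lay in a window of 11 of the 31 genes (35.5%), against 8.09% of 27025 genes with a window. The longer forms contain that core and so overlap with it. GTCACGTG was found in 8 genes (25.8%), against 2.55%, and the palindrome TCACGTGA in 6 (19.4%), against 1.12%. The 11 genes were Atp6v0d1, Atp6v1a, Cln3, Ctsa, Ctsd, Ctsl, Gaa, Lamp1, Mcoln1, Naglu and Sgsh. These are matches of letters, and no binding was measured. The stretches below are printed because they carry the motif in genes whose promoter CREs ranged from the deepest loss of H3K27ac after LPS (Sgsh) through Ctsd, Lamp1 and Naglu to no call (Mcoln1, Atp6v1a). They run 5′ to 3′ on the strand of the gene, and capitals mark CACGTG.
Lamp1, chr8:13159081-13159158, plus strand: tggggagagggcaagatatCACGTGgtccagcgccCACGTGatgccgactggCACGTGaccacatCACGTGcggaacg
Mcoln1, chr8:3500429-3500498, plus strand: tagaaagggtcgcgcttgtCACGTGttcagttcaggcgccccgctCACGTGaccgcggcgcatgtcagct
Ctsd, chr7:142387878-142387937, minus strand: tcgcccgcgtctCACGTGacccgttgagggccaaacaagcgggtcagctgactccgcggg
Naglu, chr11:101070004-101070053, plus strand: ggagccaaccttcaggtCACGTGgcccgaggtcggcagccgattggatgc
Sgsh, chr11:119355523-119355552, minus strand: ggggcctgccgtgCACGTGaccgtggggag
Atp6v1a, chr16:44139350-44139409, minus strand: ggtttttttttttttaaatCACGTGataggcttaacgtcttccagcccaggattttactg

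A further sequence comes from the centre of the intronic Atp6v0d2 CRE, whose H3K27ac rose most after IL-4 among the members. The capitals mark a match to the palindrome of TTC and GAA with 4 bases between them, which STAT6, the transcription factor activated by the IL-4 receptor, is known to bind, and which reads alike on both strands. The match begins at the central base of the CRE. Such a match lay in the central 300 bases of 15 of the 99 member CREs (15.2%) and of 9.22% of all CREs. Of the other CREs called higher after IL-4, those of Atp6v1b2 at 4277 bp and Uvrag at -2225 bp held a match. Those of Atp6v0d2 at -4659 bp, Atp6v1b2 at -7105 bp, Atp6v0a1 at -6763 bp, Uvrag at 7807 bp and Ctsk at -4713 bp did not. The promoter CRE of Ctsd, not called after IL-4, held a match.
Atp6v0d2, chr4:19918973-19919122, plus strand: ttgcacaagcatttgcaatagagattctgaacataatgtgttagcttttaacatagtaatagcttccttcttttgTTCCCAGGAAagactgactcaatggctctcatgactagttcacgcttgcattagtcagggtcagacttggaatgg

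Values are normalized read counts per CRE, scaled by the authors, and their totals (5923684 to 6873668 in DMSO libraries, 4066894 to 12391409 in CKI libraries) are not sequencing depths. The contrast between strong and weak CREs, the ratio of the median in the top 10% of CREs to the median in the bottom 10%, was 75.1 at the median of the DMSO libraries and 17.56 at that of the CKI libraries, with no DMSO library below 53. In the column order of the table the CKIs fall into 6 runs that share no compound, with median contrasts from 11.21 to 35.09. Of 8 macrophage markers, 6 (Cd14, Fcgr1, Itgam, Lyz2, Mertk and Spi1) had a promoter CRE, each at or above percentile 80.3 of all CREs in the DMSO libraries, and Csf1r and Adgre1 had none. None of the 4 T cell and 4 B cell markers had a promoter CRE, and Camp (neutrophils), Flt3 (dendritic cells) and Col1a1 (fibroblasts) were the only others that did, at 4.5, 7 and 3.5 normalized reads in UT.

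Members were strongly marked before any stimulus. The median level of the 32 member promoter CREs in UT was 161.4 normalized reads per kb, against 71.43 for all CREs within 1 kb of a coding start and 20.62 for all CREs. Per kb of CRE, the highest level lay 4846 bp upstream of Ctsd, which encodes the aspartic protease cathepsin D, at 335.5 reads per kb. It was followed by CREs upstream of Psap, which encodes the precursor of the saposins, at 288.6 and 278.1 reads per kb. The lowest levels, 2.34 and 3.53 reads per kb, lay at distal CREs of Map1lc3b and Atp6v0d1. Those 2 and 1 distal CRE each of Sgsh and Tfeb stayed under a mean of 10 and were not tested in the DMSO libraries, which left 95 members.

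In DMSO cells, H3K27ac at the member CREs mostly fell after LPS. The member genes were chosen with earlier results of these data known. The deepest losses lay at Sgsh, Tfeb, Psap and Scarb2, and the gains at Cln3, Npc2 and Sqstm1. A CRE was called where a limma F-test over the 4 times against UT gave an adjusted p under 0.01 and the log2 difference passed 1 in size at some time. By this rule 48 of 95 member CREs (50.5%) fell and 9 (9.47%) rose, while 24.6% of all 50697 tested CREs fell and 29.0% rose. The median of the largest log2 difference of each CRE was -1.04 over the members and 0.37 over all tested CREs. The calls covered 22 genes with falling CREs alone, 5 genes with rising CREs alone (Atp6v1b2, Cln3, Ctsz, Npc2 and Sqstm1) and 2 genes with both (Neu1 and Uvrag). The 7 genes without a call were Atp6v0d1, Atp6v1a, Atp6v1h, Ctsb, Gusb, Map1lc3b and Mcoln1. Of the promoter CREs 17 of 32 fell and of the distal ones 31 of 63, whereas 15.6% of all tested promoter CREs and 26.8% of all distal ones did so. The only member promoter CRE called higher was that of Sqstm1 (13.4% of all promoters). Of the promoter CREs of 81 further pathway genes, given below, 15 were called lower and 5 higher. The loss is thus stated for the member CREs alone.

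The loss at the member CREs came early and was deepest at 2 h. Of the 48 falling CREs, 26 were already past a log2 difference of 1 at 30 min. The largest difference came at 30 min in 11, at 1 h in 6, at 2 h in 24 and at 4 h in 7. The median over the 95 members was -0.30 at 30 min, -0.64 at 1 h, -0.80 at 2 h and -0.32 at 4 h. Over all tested CREs the 4 h median was 0.08. The earlier medians and the time of the largest difference were not taken over all CREs. At 4 h, 36 of the 48 were still below UT at an adjusted p under 0.05, 10 no longer passed that threshold and 2, the promoter CRE of Psap and a distal CRE of Neu1, had gone above UT. Counted at 4 h alone and without a size threshold, 43 members (45.3%) were lower and 18 (18.9%) higher, against 26.0% and 30.9% of all tested CREs.

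Macrophage markers moved in the same time courses. Of their 6 promoter CREs, 4 (Fcgr1, Itgam, Lyz2 and Mertk) were called lower and none higher after LPS and 1 (Itgam) lower after IL-4, and the summed level of the 6 went from 4783.5 normalized reads in UT to between 3731.5 and 4939 in the LPS groups and between 3813 and 4120.5 in the IL-4 groups. Fcgr1 went from 641 reads in UT to 197.5 at 30 min and then above UT, to 1247 at 2 h and 1197 at 4 h, and at 4 h 2 of the 6 markers were higher and 4 lower. The promoter CRE of the neutrophil granule gene Camp went from 4.5 reads in UT to 145.5 at 4 h of LPS. The part of these markers in the member counts was not tested.

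**Figure D1:**
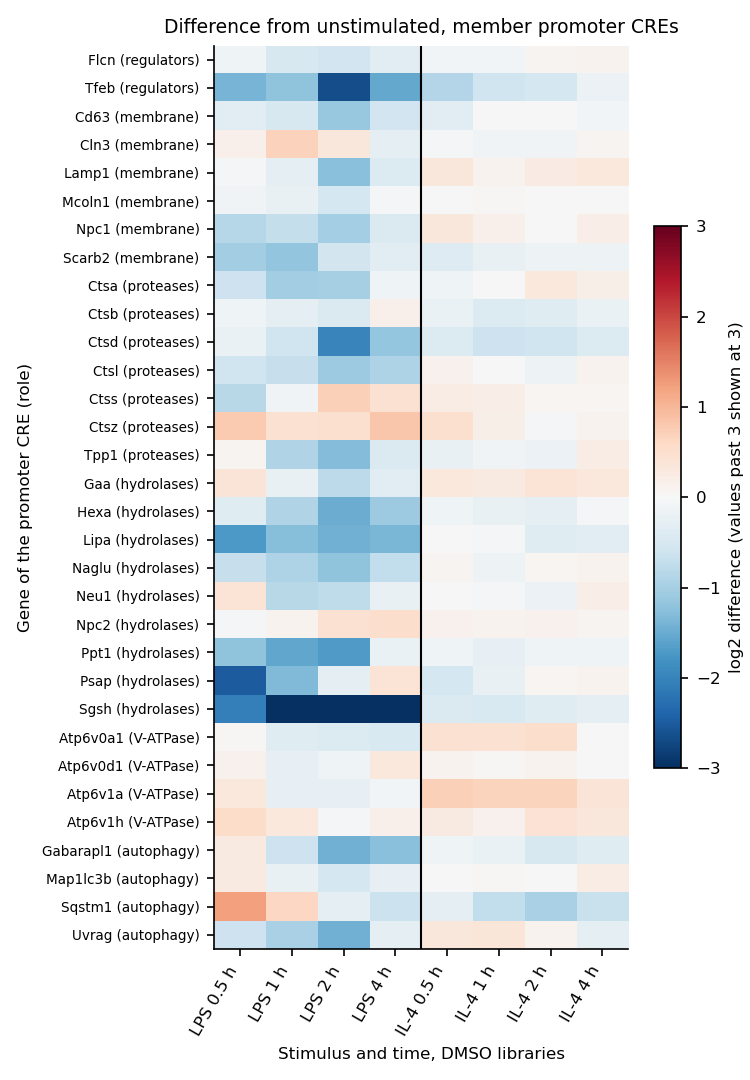
Each row is the promoter CRE of a member gene with its role, each column a stimulus and time, and the colour the log2 difference from unstimulated DMSO libraries (2 libraries per group). Blue, lower, fills much of the LPS columns, deepest for Sgsh (-3.50 at 4 h) and Tfeb (-2.67 at 2 h), while Sqstm1 was red at 30 min of LPS (1.24). The IL-4 columns are pale, and no promoter CRE passed the call there.

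Among the regulators, 2 of 6 tested CREs fell and none rose after LPS. The promoter CRE of Tfeb (chr17:47736163-47738930, centre in a Tfeb intron at -385 bp from the nearest start) held 307 and 364 normalized reads in the UT libraries. After LPS it held 124 and 126 at 30 min, 118 and 172 at 1 h, 32 and 72 at 2 h and 110 and 115 at 4 h. All 8 LPS libraries lay below both UT libraries, and the log2 difference was -2.67 (SE 0.23, adjusted p = 2.78e-12) at 2 h and -1.53 (SE 0.23, adjusted p = 6.69e-07) at 4 h. After IL-4 the same CRE held 148 and 214 at 30 min and 270 and 323 at 4 h. The IL-4 difference was -0.89 (SE 0.16, adjusted p = 6.44e-06) at 30 min, short of the size threshold, and -0.18 (SE 0.16) at 4 h. Without 1 library (UT replicate 1 or the second 30 min replicate) the IL-4 difference passed the call, at -1.01 and -1.15. Flcn moved less at its promoter CRE (chr11:59808354-59811139). It held 706 and 729 in UT, 481 and 485 at 2 h of LPS and 565 and 593 at 4 h, a log2 difference of -0.57 (SE 0.11, adjusted p = 3.20e-05) at 2 h, and after IL-4 its differences ran from -0.09 to 0.10, with an adjusted p over the course of 0.153. A distal CRE of Flcn was the other one called lower after LPS, at -1.80.

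**Figure D2:**
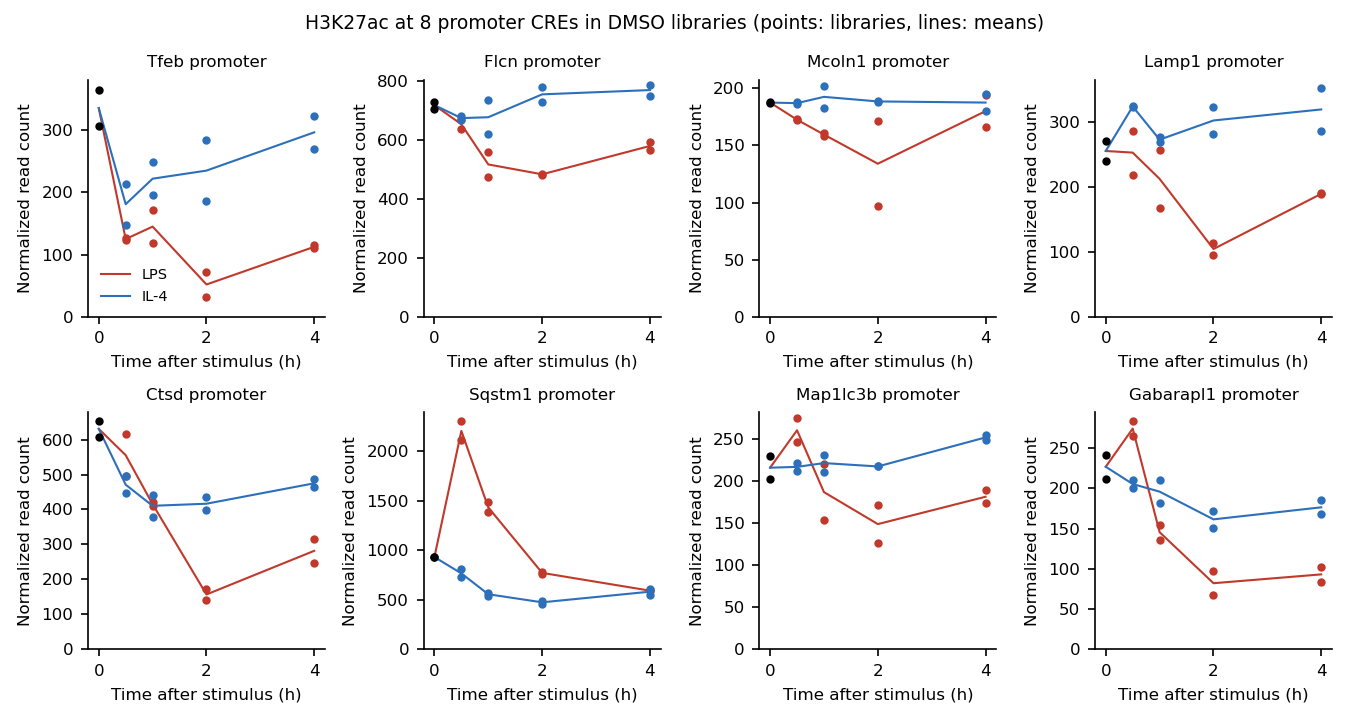
Normalized H3K27ac read counts (vertical axis, from 0) at 8 promoter CREs against hours after stimulus, with points for single DMSO libraries, lines through the means of 2, and black points for UT. Tfeb, Lamp1, Ctsd and Gabarapl1 dipped at 2 h of LPS and stayed lower at 4 h, Sqstm1 peaked at 30 min of LPS at 2110 and 2303 reads, and the IL-4 lines stayed closer to UT.

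For lysosomal membrane proteins, 10 of 19 CREs fell after LPS and 2 rose. Lamp1 encodes the most abundant glycoprotein of the lysosomal membrane. Its promoter CRE (chr8:13158255-13160031) held 240 and 271 reads in UT, 287 and 219 at 30 min of LPS, 168 and 257 at 1 h, 95 and 114 at 2 h and 190 and 189 at 4 h. The 30 min libraries straddled UT and the 2 h ones were the lowest, with a log2 difference of -1.25 (SE 0.18, adjusted p = 2.33e-07) at 2 h and -0.42 (SE 0.18, adjusted p = 0.0465) at 4 h. The CRE upstream of Lamp1, at -3634 bp (chr8:13154665-13156390, intergenic), fell further and did not recover. It held 439 and 403 in UT, 173 and 184 at 30 min and 114 and 110 at 4 h of LPS, a log2 difference of -1.86 (SE 0.16, adjusted p = 5.57e-12) at 4 h, against 568 and 559 at 4 h of IL-4. This CRE was singled out after its values were seen.

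Mcoln1 encodes the lysosomal calcium channel TRPML1, and its promoter CRE (chr8:3499571-3501318) was among those that stayed nearest to UT. It held 188 and 187 in UT, 97 and 171 at 2 h of LPS and 194 and 166 at 4 h. The 2 h libraries spread widely, with a log2 difference of -0.52 (SE 0.19, adjusted p = 0.0176), and the course was not called. Scarb2, which carries glucocerebrosidase to the lysosome, lost H3K27ac at its promoter and upstream of it. The CRE at -5813 bp (chr5:92510666-92512274) held 59 and 45 in UT and fell to 15 and 19 at 30 min and to 5 and 3 at 4 h of LPS, a log2 difference of -2.66 (SE 0.37, adjusted p = 1.84e-07) on a low level. After IL-4 it held 23 and 21 at 30 min, a log2 difference of -1.07 (SE 0.27, adjusted p = 0.00127), and 51 and 60 at 4 h, back at UT. Cd63 and Npc1, the latter the cholesterol exporter of the lysosomal membrane, were called lower at their promoters (-1.15 and -1.01 at 2 h) and at distal CREs (down to -1.84 for Cd63 and -1.71 for Npc1).

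The gains within 10 kb of Cln3, which encodes a lysosomal membrane protein mutated in Batten disease, lay away from its promoter. The CRE at -5656 bp (chr7:126590638-126592308) sits in an intron of the cytokine gene Il27, whose start is nearer, at 3549 bp. It held 8 and 7 reads in UT, 76 and 77 at 1 h and 92 and 91 at 4 h of LPS, a log2 difference of 2.95 (SE 0.27, adjusted p = 1.32e-11), and 12 and 6 at 4 h of IL-4. The CRE at 8444 bp (chr7:126573956-126575628), in a Cln3 intron and 8426 bp from the start of Eif3c, went from 8 and 9 to 140 and 87 at 2 h, a difference of 3.10 (SE 0.30, adjusted p = 4.02e-11). The promoter CRE of Cln3 itself was not called, with a largest difference of 0.68, so the gain near Cln3 cannot be assigned to that gene by distance.

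Among proteases of the lysosome, 10 of 21 CREs fell after LPS and 1, a distal CRE of Ctsz (cathepsin Z), rose. At Ctsd, the promoter CRE (chr7:142386062-142388907, centre in an intron at 343 bp) held 653 and 609 reads in UT, 495 and 616 at 30 min, 420 and 410 at 1 h, 142 and 171 at 2 h and 316 and 247 at 4 h of LPS. From 1 h on, no LPS library reached a UT library, and the log2 difference was -1.98 (SE 0.14, adjusted p = 1.45e-14) at 2 h and -1.16 (SE 0.14, adjusted p = 8.01e-09) at 4 h. After IL-4 the 8 libraries held 379 to 495, all below UT, with a largest difference of -0.62 (SE 0.10, adjusted p = 1.76e-06) at 1 h. The strong CRE upstream of Ctsd (chr7:142389514-142395832) was called lower by both stimuli. It went from 2200 and 2040 to 451 and 408 at 2 h of LPS and to 877 and 869 at 2 h of IL-4, log2 differences of -2.29 (SE 0.09, adjusted p = 8.79e-21) and -1.27 (SE 0.07, adjusted p = 1.14e-20).

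Cathepsin S, the product of Ctss, processes antigen-presenting class II molecules, and its promoter CRE went down and then up. It held 441 and 412 in UT, 234 and 241 at 30 min, 707 and 695 at 2 h and 605 and 573 at 4 h of LPS, with log2 differences of -0.83 (SE 0.12) at 30 min and 0.71 (SE 0.12) at 2 h, neither past the size threshold. All 4 distal CREs of Ctss were called lower, each with its largest difference at 30 min (-1.48 to -1.96). Promoter CREs of Tpp1 (-1.31 at 2 h), Ctsl (-1.09 at 2 h) and Ctsa (-1.04 at 1 h) were called lower too, and cathepsin B, the product of Ctsb, had no call (-0.45 at its promoter CRE). Ctsk encodes cathepsin K, the collagenase of osteoclasts. Its CRE at -1394 bp (chr3:95497008-95498625) held 250 and 197 in UT and fell after both stimuli, to 79 and 85 at 2 h of LPS (-1.38, SE 0.22, adjusted p = 1.70e-06) and to 88 and 91 at 2 h of IL-4 (-1.26, SE 0.16, adjusted p = 2.45e-09).

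Hydrolases and their cofactors gave the deepest losses, with 20 of 30 CREs lower and 2 higher after LPS. Sgsh encodes sulfamidase, which degrades heparan sulfate. Its promoter CRE (chr11:119354136-119356374, centre in a Sgsh intron at 255 bp, and within 1 kb of the start of Slc26a11, which runs the other way) held 563 and 566 reads in UT. It fell to 132 and 135 at 30 min, 57 and 77 at 1 h, 33 and 62 at 2 h and 35 and 58 at 4 h of LPS, a log2 difference of -3.50 (SE 0.24, adjusted p = 5.93e-15) at 4 h. The CRE at 3213 bp, inside the gene (chr11:119351472-119353123), went from 238 and 242 to 10 and 8 at 4 h, a difference of -4.13 (SE 0.26, adjusted p = 1.23e-15), the largest of any member. After IL-4 the promoter CRE held 388 to 468 in 8 libraries, with a largest difference of -0.45 (SE 0.10), and the inner CRE held 238 and 273 at 4 h. The Sgsh CRE at 8157 bp fell after LPS (-2.38, SE 0.41) and, from 43 and 45 to 15 and 18 at 2 h, after IL-4 (-1.19, SE 0.30, adjusted p = 0.00108), although the IL-4 call of this low CRE was lost without either UT library (adjusted p over the course 0.0168 and 0.0223).

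Psap lost H3K27ac within 30 min and its CREs then parted. The promoter CRE (chr10:60282014-60285246) held 705 and 593 in UT, 94 and 129 at 30 min, 269 and 240 at 1 h, 530 and 550 at 2 h and 893 and 817 at 4 h of LPS. The 30 min difference was -2.50 (SE 0.14, adjusted p = 5.31e-17), and at 4 h both libraries lay above both UT libraries, by 0.40 (SE 0.14, adjusted p = 0.0133). The CRE at -8239 bp (chr10:60268117-60270661) went from 737 and 732 to 160 and 211 at 30 min, 126 and 128 at 2 h and 295 and 255 at 4 h, with -2.49 (SE 0.15, adjusted p = 3.20e-16) at 2 h and -1.40 (SE 0.15, adjusted p = 7.49e-10) at 4 h. Thus the CRE counted as promoter had regained its level at 4 h while the CRE at -8239 bp had not. The former lies in a Psap intron, with its centre at -831 bp from the start at 60284461. The latter is measured from the start at 60277628. That start lies within a CRE counted as distal (chr10:60276781-60280831), whose LPS course is not given here. Lipa, which encodes lysosomal acid lipase, fell early and stayed low, from a mean of 380.5 reads at its promoter CRE in UT to 94 and 132 at 30 min and 140 and 148 at 4 h, a difference of -1.37 (SE 0.18, adjusted p = 3.93e-08) at 4 h. Npc2 encodes the cholesterol carrier of the lumen and went the other way: its intronic CRE at 6803 bp (chr12:84764056-84768563) held 336 and 330 in UT and 1641 and 1500 at 2 h of LPS, a log2 difference of 2.22 (SE 0.10, adjusted p = 1.46e-19), while IL-4 libraries held 278 to 409. Lipa and Npc2 were singled out after their values were seen. Among the other hydrolases, the promoter CREs of Ppt1, a palmitoyl thioesterase (-1.71), Hexa, a subunit of hexosaminidase A (-1.49), and Naglu, a glucosaminidase (-1.21), were called lower with their deepest point at 2 h. Gaa, the acid glucosidase, was called only at a distal CRE (-1.42 at 30 min), and Gusb had no call.

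Autophagy genes were split, with 4 CREs lower and 3 higher of 9 after LPS. Sqstm1 encodes the selective autophagy receptor p62. Its promoter CRE (chr11:50209093-50214504) held 935 and 927 in UT, 2110 and 2303 at 30 min, 1382 and 1483 at 1 h, 760 and 781 at 2 h and 589 and 593 at 4 h of LPS. The level was above UT for 1 h and below it afterwards, with log2 differences of 1.24 (SE 0.09, adjusted p = 4.02e-14) at 30 min and -0.65 (SE 0.09, adjusted p = 8.05e-08) at 4 h. Under quantile normalization the 30 min gain was 0.88, under the size threshold. The distal CRE of Sqstm1, at 8505 bp, held 87 and 78 in UT and 157 to 230 in the 8 LPS libraries. After IL-4 the promoter CRE fell to 488 and 458 at 2 h, a difference of -0.97 (SE 0.09, adjusted p = 6.77e-13) under the size threshold, and passed it without the first 2 h replicate (-1.02).

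Map1lc3b and Gabarapl1 encode ubiquitin-like proteins of the ATG8 family that coat autophagosomes. For Map1lc3b, the promoter CRE (chr8:121589548-121592305) held 202 and 229 in UT, 274 and 246 at 30 min, 171 and 126 at 2 h and 189 and 173 at 4 h of LPS. It was not called, with -0.54 (SE 0.18, adjusted p = 0.00895) at 2 h, and IL-4 libraries held 211 to 254. For Gabarapl1, the promoter CRE (chr6:129531885-129534075, in an intron of 1700101I11Rik) held 212 and 242 in UT, 284 and 265 at 30 min, 67 and 97 at 2 h and 84 and 102 at 4 h of LPS. Both early libraries were above UT and all from 1 h on below it, with -1.43 (SE 0.19, adjusted p = 3.11e-08) at 2 h and -1.25 (SE 0.19, adjusted p = 5.70e-07) at 4 h. After IL-4 it held 151 to 211 in the 8 libraries, with -0.48 (SE 0.14, adjusted p = 0.00433) at 2 h.

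Uvrag, which encodes a partner of Beclin 1 in the PI3-kinase complex of endosomes, had CREs of opposite course within one neighbourhood. The promoter CRE and those at -2225 and -5508 bp were called lower after LPS. The intronic CRE at 7807 bp (chr7:99131723-99134951) held 334 and 271 in UT, 147 and 142 at 30 min, 796 and 868 at 2 h and 876 and 775 at 4 h of LPS, so that a difference of -1.03 (SE 0.13) at 30 min turned into 1.45 (SE 0.13, adjusted p = 1.18e-11) at 2 h. After IL-4 it held 716 and 734 at 30 min and 514 and 441 at 4 h, a gain of 1.25 (SE 0.10, adjusted p = 9.13e-15) at 30 min with no dip.

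IL-4 acted on fewer members, and the V-ATPase led the gains. In the IL-4 time course 8 of 95 member CREs (8.42%) were called higher and 6 (6.32%) lower, against 13.6% and 11.0% of all 47018 tested CREs, so that both shares of the members were under those of all CREs. A pseudocount of 20 left 4 higher and 2 lower, with the calls at -4659 bp of Atp6v0d2 and -6763 bp of Atp6v0a1 among those lost. No promoter CRE was among the 14, and 26 of the 36 genes had no call. All 8 gains were past a log2 difference of 1 at 30 min. Of the 8, 5 belonged to V-ATPase genes, which had 10 tested CREs and no loss, 2 to Uvrag and 1 to Ctsk. The 6 losses lay at CREs of Ctsd, Ctsk, Sgsh and Scarb2 given above, at one in an intron of Ppt1 (105 and 68 in UT, 38 and 32 at 2 h, -1.17, SE 0.26, adjusted p = 2.26e-04) and at one upstream of Hexa (114 and 124 in UT, 49 and 55 at 2 h, -1.12, SE 0.21, adjusted p = 1.36e-05). The Ctsk gain, at -4713 bp in an exon of Arnt, went from 40 and 29 to 96 and 73 at 30 min (1.18, SE 0.24, adjusted p = 6.92e-05), while its other CRE fell. At 4 h without a size threshold, 15 members were higher and 17 lower, against 20.5% and 18.3% of all tested CREs. Without UT replicate 1 the counts were 13 and 8, and without UT replicate 2 they were 11 and 13.

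Atp6v0d2 encodes a d2 subunit of the membrane sector of the V-ATPase, and has no promoter CRE in the table. The CRE at 3518 bp, in an Atp6v0d2 intron (chr4:19918211-19919886, with the centre printed above), held 51 and 55 reads in UT. It rose to 204 and 188 at 30 min, 178 and 238 at 1 h, 196 and 241 at 2 h and 270 and 228 at 4 h of IL-4, each library above 3 times either UT library. The log2 difference was 1.79 (SE 0.16, adjusted p = 1.03e-13) at 30 min and 2.13 (SE 0.16, adjusted p = 2.94e-16) at 4 h. The upstream CRE at -4659 bp rose from 15 and 6 to 34 and 40 at 30 min and 22 and 44 at 4 h (1.29, SE 0.34, adjusted p = 0.00186 at 4 h), a low level whose call was lost without UT replicate 2 (adjusted p over the course 0.144).

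Atp6v1b2 encodes the B2 subunit of the catalytic sector, the isoform found in most cells. Its intronic CRE at 4277 bp (chr8:69092154-69093873), 3791 bp from the start of Slc18a1, held 27 and 26 in UT, 113 and 123 at 1 h and 71 and 85 at 4 h of IL-4, a difference of 1.96 (SE 0.20, adjusted p = 1.43e-11) at 1 h. It also rose after LPS, to 110 and 69 at 4 h (1.55, SE 0.25, adjusted p = 2.87e-06). The CRE at -7105 bp rose for a short time, from 33 and 35 to 93 and 99 at 30 min of IL-4 (1.37, SE 0.25, adjusted p = 1.03e-05), and was back at 35 and 33 at 2 h. The gains differed in length, still above UT at 4 h at the intronic CREs of Atp6v0d2 and Atp6v1b2 and lost by 2 h at -7105 bp of Atp6v1b2. Atp6v1a encodes the catalytic A subunit, and its promoter CRE held 1000 and 1034 in UT and 1298 to 1715 in the 8 IL-4 libraries, with a largest difference of 0.72 (SE 0.07, adjusted p = 1.78e-12), under the size threshold.

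At 3 CREs the largest changes after LPS and after IL-4 were called in opposite directions. Over all 18 DMSO libraries, the limma F-test of LPS against IL-4 at equal times called 51 of 95 members (53.7%) lower after LPS and 8 (8.42%) higher, against 29.2% and 29.2% of 50587 tested CREs. The 3 CREs were the intronic one of Atp6v0d2, that of Atp6v0a1 at -6763 bp and that of Uvrag at -2225 bp. The Atp6v0d2 CRE fell to 17 and 12 reads at 1 h of LPS, and the difference of LPS from IL-4 was -3.49 (SE 0.27, adjusted p = 6.23e-15) at 4 h. Its LPS call was lost without either UT library (adjusted p over the course 0.0140 and 0.0231), although its difference there stayed at -1.63 and -1.53. The Atp6v0a1 CRE (chr11:101001290-101004067), near the gene of an a subunit that anchors the V-ATPase, held 162 and 175 in UT, 58 and 81 at 30 min of LPS and 341 and 346 at 30 min of IL-4, a difference of LPS from IL-4 of -2.24 (SE 0.20, adjusted p = 5.63e-13). The Uvrag CRE (chr7:99142588-99144150) held 83 and 78 in UT, 29 and 32 at 1 h of LPS and 114 and 135 at 1 h of IL-4, a difference of -1.86 (SE 0.22, adjusted p = 1.06e-09). At 30 min both stimuli had raised it, to 127 and 129 and to 168 and 183. The IL-4 calls of both CREs rested on differences near the size threshold. With a pseudocount of 20 and with quantile normalization they were 0.95 and 0.92 for Atp6v0a1 and 0.96 and 0.98 for Uvrag, and that of Atp6v0a1 was also under 1 without UT replicate 1 (0.95) or the second 30 min replicate of IL-4 (0.997).

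Promoter CREs with and without CACGTG in the RefSeq window overlapped in their response to LPS. The 11 with the core had a median log2 difference of -0.34 at 4 h, between -3.50 and 0.33, and the 18 without it a median of -0.31, between -1.53 and 0.83.

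Other genes of the pathway moved in both directions. A list of 91 further lysosome, V-ATPase, mTORC1 and autophagy genes had promoter CREs for 81. In the LPS time course 15 of the 81 were called lower and 5 higher, where all promoter CREs gave 15.6% and 13.4%. At 4 h 20 were lower and 17 higher, against 21.8% and 23.2% of all promoter CREs, with a median log2 difference of 0.07. The lowest were Fuca1, which encodes the lysosomal fucosidase, from 811.5 reads in UT to 146 at 2 h (largest difference -2.44), and Gpnmb, a glycoprotein of lysosome-rich macrophages, from 458 to 85.5 (-2.36). The highest were Optn, from 47.5 to 227.5 at 30 min (2.15), and Tax1bp1, from 233 to 567.5 at 4 h (1.26), both genes of autophagy receptors. Bnip3, a receptor for mitochondria, was called lower (-1.54), and Nbr1, another receptor, had -0.89 and was not called. After IL-4 none was called higher and 1, Gpnmb (-1.28), lower, against 4.52% and 1.92% of all promoter CREs.

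The LPS pattern of the members held in CKI cells. Over all CKI libraries, with compound and condition as factors, 47 of 99 members (47.5%) were lower at 4 h of LPS and 9 (9.09%) higher, at an adjusted p under 0.05 and a log2 difference past 0.5, against 20.8% and 21.1% of 59167 CREs. All 47 were below 0 in 6 of 6 column runs and 16 of them fell in each of the 55 compounds that had both UT and 4 h LPS libraries. Of the 43 members lower at 4 h in DMSO cells, 40 (93.0%) were among these 47 (85.1%), and of the 18 higher in DMSO cells 8 were among the 9. Within single runs 49 to 61 members were called. After 4 h of IL-4, 6 members were lower and 3 higher, against 11.3% and 9.36% of all CREs, and each kept its sign in 6 of 6 runs. DMSO and CKI counts rest on different numbers of libraries and different size thresholds. The counts by run and by compound and the overlaps with DMSO calls were not taken over all CREs. They therefore do not set the members apart from other called CREs.

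The promoter CRE of Sgsh ranged from 281 to 716 reads in 73 UT CKI libraries, with a median of 528, and from 28 to 166 in 57 libraries at 4 h of LPS, with a median of 86. The groups did not overlap, and the log2 difference was -2.61 (SE 0.06, adjusted p = 1.11e-171). By compound it ran from -3.70 with Lenvatinib to -1.15 with PH797804. The Lamp1 CRE at -3634 bp ranged from 205 to 511 in UT and from 57 to 164 at 4 h of LPS, again without overlap, a difference of -1.77 (SE 0.05, adjusted p = 5.59e-134). Tfeb at its promoter ranged from 156 to 494 (median 307) in UT and from 10 to 218 (median 110) at 4 h of LPS, with some overlap, a difference of -1.48 (SE 0.07, adjusted p = 5.10e-73). It was lower in every one of the 55 compounds, between -3.99 and -0.35.

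Atp6v0d2 gained H3K27ac after IL-4 with nearly every compound. Its intronic CRE ranged from 23 to 157 in UT (median 71), from 70 to 285 at 4 h of IL-4 (median 173) and from 5 to 166 at 4 h of LPS (median 32). The IL-4 difference was 1.14 (SE 0.10, adjusted p = 1.27e-26), beside 2.13 in DMSO cells, and these values were not tested against each other. It was above 0 in 54 of 55 compounds, from -0.02 with Pimasertib to 2.18 with Omipalisib. The Npc2 and Uvrag gains after LPS likewise held in all 55 compounds, from 0.25 to 2.47 and from 0.13 to 2.04.

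**Figure D3:**
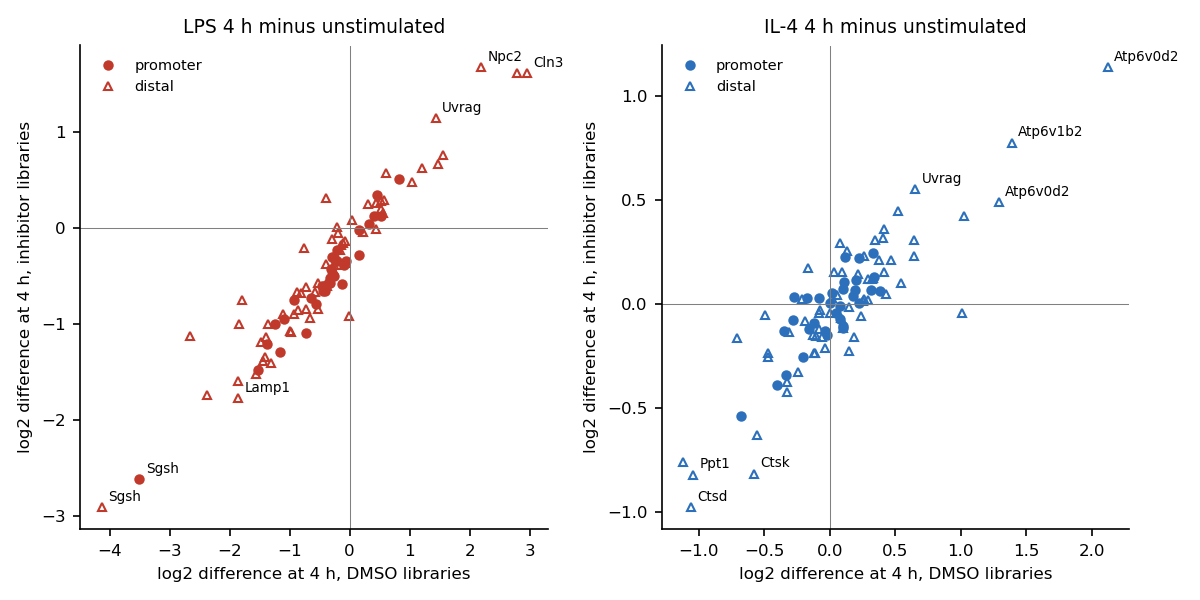
Each point is a member CRE, with its log2 difference between 4 h of LPS (left) or IL-4 (right) and UT in DMSO libraries on the horizontal axis and in inhibitor libraries on the vertical axis (filled circles promoter, open triangles distal). Of the CREs lower after LPS in DMSO cells all 43 were below 0 in inhibitor libraries, with the Sgsh promoter at -3.50 and -2.61. This count was not taken over all CREs.

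**Figure D4:**
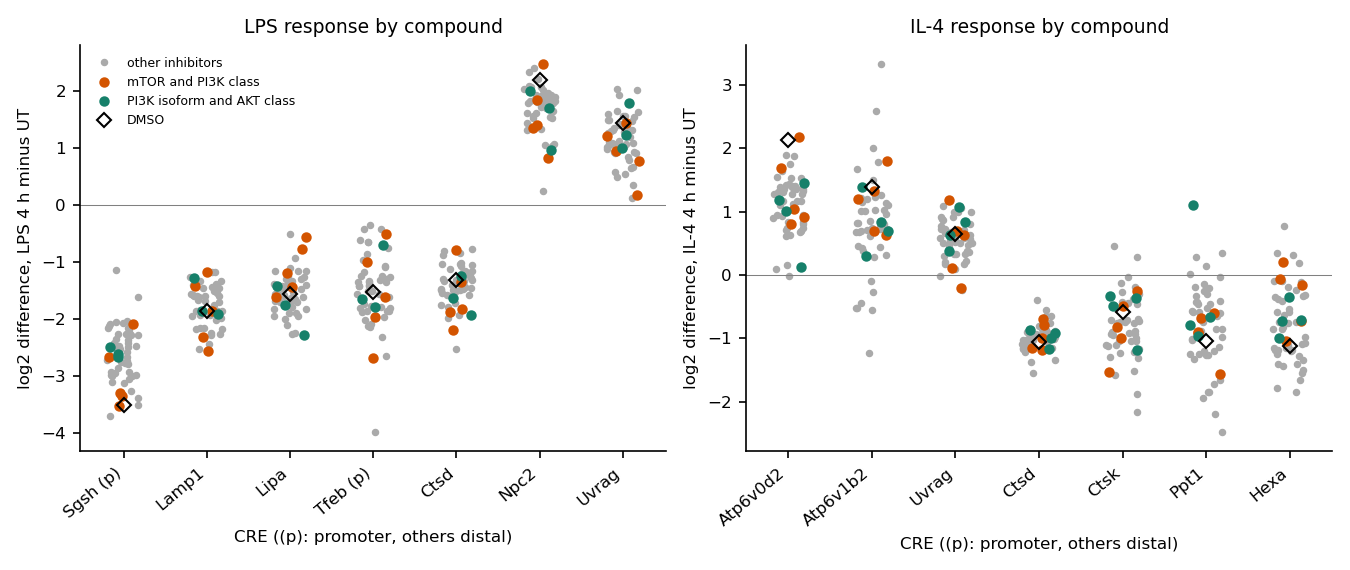
The log2 difference of each compound between 4 h and UT (vertical axis) for 7 CREs after LPS (left) and 7 after IL-4 (right), with 1 point per inhibitor, coloured by class, and an open diamond for DMSO. All 55 compounds were below 0 at Sgsh, Lamp1 (-3634 bp), Lipa, Tfeb and Ctsd (upstream) and above 0 at Npc2 and Uvrag after LPS, and 54 of 55 were above 0 at Atp6v0d2 after IL-4.

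Whether inhibitors of PI3K and mTOR changed these CREs was asked against the other CKIs. Exposure was short, from the pretreatment alone in UT to the pretreatment and 4 h of stimulus. Effects of a longer exposure were not tested. The class of 5 dual PI3K/mTOR or mTOR inhibitors held Apitolisib, BGT226, PF04691502 and Omipalisib, which target PI3K isoforms and MTOR, and AZD2014, which targets MTOR. A second class of 4 held AZD8186 and TG100115, which target PI3K isoforms, and GSK2110183 and MK2206, which target AKT kinases. Each CKI was used at the midpoint concentration for its intended target in a kinobeads assay, a competition for kinases on beads, so doses differ, and several of the 9 were chosen for another intended target (JAK1 for Apitolisib, PFKP for AZD2014, CLK1 for BGT226, IRAK3 for Omipalisib). For the test, each library was set against the mean of all CKI libraries of its condition, averaged per compound, and a class compared with the 49 CKIs in neither class.

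Few members differed between the mTOR and PI3K class and the other CKIs. In UT libraries 1 member was higher and 1 lower, against 0.567% and 1.51% of 59096 CREs. After LPS it was again 1 and 1, against 0.712% and 2.06%, and after IL-4 none, against 0.162% and 0.609%. At an unadjusted p under 0.05 the members numbered 12 in UT, 20 after LPS and 10 after IL-4. All CREs gave 12.5%, 26.9% and 10%. Of these members 11, 13 and 8 were higher, and the shares of all CREs were not split by direction. The median class difference of the 99 members was 0.05 in UT, -0.01 after LPS and 0.04 after IL-4, beside -0.01, 0.08 and 0.04 over all CREs.

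The member higher in UT was the promoter CRE of Gabarapl1. Its compound averages, on a log2 scale with the condition mean removed, were 0.84 with BGT226, 0.59 with AZD2014, 0.52 with Omipalisib, 0.13 with Apitolisib and -0.12 with PF04691502, so 4 of 5 were above 0 and 3 above the highest of the 49 others (0.50). The class difference was 0.42 (SE 0.12, limma adjusted p = 0.0402). It was 0.28 (SE 0.11, adjusted p = 0.105) after LPS and 0.22 (SE 0.09, adjusted p = 0.254) after IL-4. The LPS difference passed with quantile normalization (0.40, adjusted p = 0.0174), with column run as a factor (0.37, adjusted p = 0.0194) and without PF04691502 (0.42, adjusted p = 0.0259). The UT call was lost without BGT226, Omipalisib or AZD2014 (adjusted p 0.301, 0.221 and 0.134) and where the reference was limited to the column runs with a class compound (adjusted p = 0.105), with the difference between 0.30 and 0.42. In the PI3K isoform and AKT class the Gabarapl1 differences were -0.15 (SE 0.13), -0.33 (SE 0.12) and -0.10 (SE 0.10), none past the threshold.

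The member lower in UT was the Lipa CRE at 6939 bp, in a Lipa intron, with -0.90 for Omipalisib, -0.35 for Apitolisib, -0.30 for PF04691502, -0.13 for AZD2014 and 0.22 for BGT226. Its class difference of -0.34 (SE 0.10, adjusted p = 0.0425) became -0.19 (adjusted p = 0.601) without Omipalisib, and after LPS it was 0.09 (SE 0.10). After LPS the higher member was the CRE at -4853 bp of Map1lc3b (chr8:121584675-121586495, intergenic). Its averages were 0.69 with BGT226, 0.49 with Omipalisib, 0.32 with AZD2014, 0.32 with Apitolisib and -0.17 with PF04691502, a difference of 0.35 (SE 0.10, adjusted p = 0.0476). This call was lost with a pseudocount of 1, with contrast as a covariate, with the limited reference and without Apitolisib, BGT226, Omipalisib or AZD2014, at adjusted p between 0.0522 and 0.281 and differences between 0.26 and 0.40. The same CRE gave 0.43 (SE 0.15, adjusted p = 0.108) in UT and 0.26 (SE 0.09, adjusted p = 0.151) after IL-4, where all 5 compounds were above 0. The lower member after LPS was a CRE at 7814 bp of Tpp1, which encodes a tripeptidyl peptidase. It lies 83 bp from the start of Taf10, a subunit of TFIID, and is the promoter region of that gene. All 5 compounds were below 0 (-0.02 to -0.83), a difference of -0.48 (SE 0.11, adjusted p = 0.0133), which no longer passed with contrast as a covariate (adjusted p = 0.0946), with the limited reference (0.0849), or without Omipalisib (0.209) or AZD2014 (0.106).

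**Figure D5:**
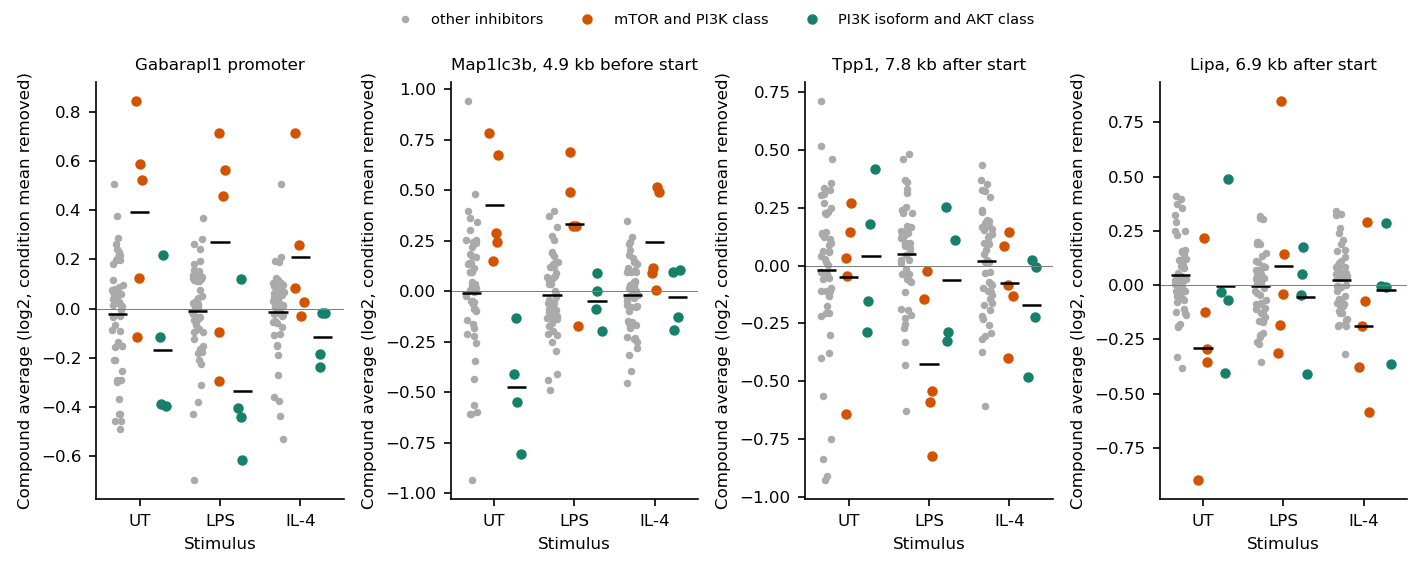
Compound averages (log2, mean of the condition removed) in UT, LPS and IL-4 libraries at 4 CREs, with 1 point per inhibitor coloured by class and bars for the class means. At the Gabarapl1 promoter 4 of 5 mTOR and PI3K inhibitors lay above 0 in UT (up to 0.84), at the Tpp1 CRE all 5 lay below 0 after LPS, and in each panel the points of the classes and of the other inhibitors overlapped.

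No other member passed for this class. At the Tfeb promoter CRE they were -0.12 (SE 0.15) in UT, 0.02 (SE 0.14) after LPS and 0.04 (SE 0.13) after IL-4. At the Flcn promoter CRE they were 0.04 (SE 0.11), -0.15 (SE 0.13) and -0.05 (SE 0.10), and at that of Mcoln1 0.10 (SE 0.11), -0.07 (SE 0.11) and 0.11 (SE 0.09). Lamp1 gave 0.26 (SE 0.12, adjusted p = 0.323) in UT and 0.11 (SE 0.10) after IL-4. Sqstm1 gave 0.20 (SE 0.08, adjusted p = 0.233) in UT, 0.08 (SE 0.12, adjusted p = 0.687) after LPS and 0.21 (SE 0.09, adjusted p = 0.343) after IL-4. Its LPS difference passed with quantile normalization (0.26, adjusted p = 0.0208) and with contrast as a covariate (0.29, adjusted p = 0.0475). Among members after IL-4, the smallest p-values fell to Sgsh at 3213 bp (0.35, SE 0.11, adjusted p = 0.149), Map1lc3b at -4853 bp (adjusted p = 0.151) and Ctsk at -1394 bp (0.39, SE 0.14, adjusted p = 0.205), where BGT226 and Omipalisib were at 1.23 and 1.08 and Apitolisib at -0.44. The Ctsk difference passed without Apitolisib (0.59, adjusted p = 0.0156) or AZD2014 (0.56, adjusted p = 0.0444). Of the 81 other pathway genes, 5 passed for this class, 1 higher and 1 lower in UT and 1 higher and 2 lower after LPS. All CREs gave 0.567% and 1.51% in UT and 0.712% and 2.06% after LPS. No alternative was run for these 5 genes. Ulk1, the kinase that starts autophagy, was higher in UT (0.55, adjusted p = 0.010) and Becn1, a scaffold of the autophagy PI3-kinase, lower (-0.45, adjusted p = 0.0276). After LPS Gpnmb was higher (0.46, adjusted p = 0.0486), and Ctsc, the gene of cathepsin C (-0.42, adjusted p = 0.0189), and Atp6v1e1, of a V-ATPase subunit (-0.41, adjusted p = 0.0468), were lower. The macrophage marker Fcgr1 was lower in UT (-0.40, adjusted p = 0.00769), and its part in these results was not tested.

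No member passed the threshold for the PI3K isoform and AKT class, where 0.00169% of all CREs did after LPS, 0% after IL-4 and 0% in UT. The smallest adjusted p among members was 0.460 after LPS, 0.904 after IL-4 and 0.311 in UT. In that order 13, 10 and 8 members were under an unadjusted p of 0.05, where all CREs gave 7.85%, 4.73% and 6.72%. Of these members 3, 3 and 0 were higher, and the shares of all CREs were again not split by direction. The smallest p-values belonged to Cd63, a tetraspanin of late endosomes, after LPS (-0.46, SE 0.16), to the Map1lc3b promoter CRE after IL-4 (-0.30, SE 0.10) and to a distal CRE of Tfeb in UT (-0.70, SE 0.20). They did not pass after adjustment over all CREs.

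Set against DMSO, members were called higher more often than lower, and all CREs too. Each fit pooled the UT libraries with those of a stimulus, with time as a factor. The LPS and IL-4 fits thus share their UT libraries, and neither gives a difference after the stimulus alone. Over 5742 pairs of member and compound, 1132 (19.7%) were higher and 322 (5.61%) lower in the LPS fit, against 32.3% and 4.04% of all pairs. In the IL-4 fit it was 1111 (19.3%) and 244 (4.25%), against 36.2% and 3.03%. The median log2 difference was 0.10 over the members and 0.39 over all pairs in the LPS fit, and 0.06 and 0.41 in the IL-4 fit. Contrast, 75.1 at the median in DMSO and 17.56 in CKI libraries, differed along with these groups, and its part in the counts was not tested. With quantile normalization the called member pairs went from 1454 to 260 in the LPS fit and from 1355 to 417 in the IL-4 fit. With each compound set against the average over all compounds and DMSO, itself included, they went to 156 (63 higher, 93 lower) and 147 (83 higher, 64 lower).

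With that last reference, BGT226 had more members called higher than any other of the 58 CKIs, in the LPS fit and in the IL-4 fit. Both fits hold the same UT libraries, so their counts are not separate observations. BGT226 had 20 member CREs higher and none lower in the LPS fit and 19 higher and 1 lower in the IL-4 fit. There 3.54% and 9.72% of all CREs were called in either direction, and its median over the members was 0.26 and 0.27. Omipalisib followed in the class with 13 higher and 4 lower in the LPS fit and 8 and 3 in the IL-4 fit, at 22.3% and 18.1% of all CREs. The other compounds of the class did not share this. AZD2014 had 2 higher and 5 lower in the LPS fit, PF04691502 had 6 lower and Apitolisib none. The p38 inhibitor PH797804, in neither class, had 15 lower and 2 higher in the LPS fit, at 21.9% of all CREs. The median contrast of the BGT226 libraries was 18.61, near that of all CKI libraries, and that of the Omipalisib libraries 8.195, the lowest of the 58 CKIs. These compounds were singled out after their values were seen.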

How the data were processed

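H3K27ac ChIP-seq reads of BMDMs were trimmed and mapped to mm10 by the authors, counted around accessible sites, scaled with peaks that did not vary between samples, and deposited as normalized read counts rounded to whole numbers. The submitters' processing notes name Bowtie and SAMtools. The values were treated here as a score made by the authors, not as raw counts, so no count model was used and sequencing depth is unknown. CREs were placed by the table's mm10 coordinates and RefSeq starts.

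Values were analysed as log2(value + 5), for CREs with a mean of at least 10, with limma (version 3.58.1, R version 4.3.3, moderated with a mean trend) and Benjamini-Hochberg adjustment over all tested CREs. A fold change on this scale understates the change of low CREs. Time course calls needed an adjusted p under 0.01 from the F-test and a log2 difference past 1, comparisons of CKI libraries an adjusted p under 0.05 with a log2 difference past 0.5, and the 4 h and class comparisons an adjusted p under 0.05 alone. The p-value of a single time is adjusted over CREs for that time. In the fits of CKI libraries 1 library usually stood for a compound and condition.

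The 36 members and the gene lists were chosen with earlier results of these data known. Named in full were Tfeb, Flcn, Mcoln1, Lamp1, Ctsd, Sqstm1, Map1lc3b and Gabarapl1, up to 8 called CREs with the largest difference per time course, up to 5 per class test, and CREs of opposite direction. CREs of Lamp1, Npc2, Lipa, Ctss, Neu1, Uvrag and Atp6v1a outside this rule, and single compounds, were named after their values were seen. The scripts were tested on simulated data. Alternatives were pseudocounts of 1 and 20, no filter, quantile normalization, a replicate block, column run, contrast, other references, and leaving out libraries or compounds.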

Additional observations from a re-analysis of the deposited data

Results flagged for a closer look

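At 3 CREs the LPS and IL-4 effects differed by the F-test over all 18 DMSO libraries, and were called in opposite directions. The largest log2 difference of LPS from IL-4 was -3.4866 at the intronic CRE of Atp6v0d2, -2.2432 at the CRE of Atp6v0a1 at -6763 bp and -1.8636 at the CRE of Uvrag at -2225 bp.

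Among the class compounds, 2 lay far from the rest of their class, by Dixon's test over 62 groups of 4 or 5 compounds. Chance gives about 1 in 20, so 2 of 62 is no more than chance gives. The groups reuse the same compounds. After LPS, TG100115 was at -0.654 at the Tfeb promoter CRE (log2, mean of the condition removed), with the other 3 PI3K isoform and AKT inhibitors between 0.0376 and 0.1199. After IL-4, GSK2110183 was at 0.2414 at the Scarb2 promoter CRE, with the other 3 between -0.5115 and -0.3861.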

How the results depend on the processing

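No single-CRE result that passed its threshold, in the main run or under an alternative, changed sign. Sign changes of results that passed in neither were not counted. Over 98 results of single CREs, 1208 of 1252 alternative values stayed on their side of the threshold, 34 lost a call and 10 gained one. Member calls ranged from 54 to 57 (LPS course), 11 to 15 (IL-4 course), 49 to 63 (LPS at 4 h), 21 to 33 (IL-4 at 4 h, with 21 of 32 without UT replicate 1) and 58 to 61 (LPS against IL-4) when 1 library was left out. A pseudocount of 20 left 6 of 14 IL-4 course calls. The replicate numbers did not pair the DMSO libraries: over 36 pairs of groups the correlation of deviations ran from -0.087 to 0.066. With the replicate number as a block the counts were 57, 14, 62, 32 and 59. Model RefSeq starts (113 CREs) gave 67 calls in the LPS course and 16 in the IL-4 course, and CREs nearest to a member's start 54 and 13, both alternatives chosen after seeing the data. CKI against DMSO went from 1454 pairs in the fit of UT and LPS libraries to 260 with quantile normalization. It went to 156 with the average over all compounds and DMSO as the reference. In the fit of UT and IL-4 libraries it went from 1355 to 417 and 147. The 2 calls of the mTOR and PI3K class after LPS became 1 with a pseudocount of 1, 4 with quantile normalization, 1 with contrast as a covariate and 0 with the reference limited to its column runs, and 0 to 5 without 1 compound. The 2 calls in UT became 1 with column run as a factor, 0 with the limited reference and 0 to 2 without 1 compound. The 0 calls after IL-4 became 1 with column run as a factor and 0 to 1 without 1 compound. The causes were not tested. Only 2 libraries per DMSO group, and mostly 1 per compound and condition, limit the precision.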
